A study of Physcomitrium patens with 6 samples.

Results

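The genes described here are 193 of the 32926 genes counted in the moss Physcomitrium patens that had few to moderate reads at 0 minutes of abscisic acid (ABA) and were among the most heavily read genes of the library 60 minutes later. They were chosen by their measured levels in CPM, a gene's reads relative to the gene reads of its library on a scale common to all libraries. The library sizes were scaled by TMM, which allows for a few genes taking many of the reads. A gene was a member if its mean of the 0 minute libraries lay from 0.5 to below 100 CPM, its mean of the 60 minute libraries was at least 300 CPM, and the ratio of these means was at least 8. The levels at 0 and 60 minutes and the change between them are therefore given as a description, with no test. The 30 minute libraries did not enter the choice.

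The series sequenced mRNA from protonema, the branching filaments of a young moss plant, at 3 times (0, 30 and 60 minutes of ABA) with 2 biological replicates a time, 6 libraries in all. The tissue had been sonicated and grown in shaken liquid medium; the sources used here do not give strain or genotype. The series design states 10 µM ABA and the treatment protocol 10 mM, and the labels do not settle which was used. Controls received the carrier methanol, at a time before collection that is not given, and no library had carrier alone at 30 or 60 minutes. ABA and time after an addition therefore cannot be told apart in any comparison between times, that of 60 with 30 minutes included. RNA came from whole cultures, in which more RNA per cell and more cells making it cannot be told apart.

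ABA is the plant hormone of water deficit. Receptors of the PYR/PYL family that have bound ABA hold back phosphatases that otherwise keep SnRK protein kinases inactive, and the freed kinases activate bZIP transcription factors at ABA-responsive promoters. In mosses ABA is known for raising tolerance to drying and freezing, and transcripts for late embryogenesis abundant proteins, which accumulate in drying cells, are its classic products. The gene IDs are not paired with names, and 0 of 32926 matched the RefSeq table used here, so the members are given by ID with no function, and the tissue label was not checked against marker genes.

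Gene reads summed to between 12450250 and 17822775 per library, and 18949 genes had enough reads to be tested. All 193 members were among them, which their floor at 60 minutes assured. The count of a member in a 0 minute library ran from 5 to 1899 reads, so the lowest starting levels rest on few reads, while no member had under 1023 reads in a 30 minute library or under 2995 in a 60 minute library. CPM is not corrected for transcript length, so an order of genes by CPM is an order of read numbers. P-values rest on a single spread per gene, estimated over all 6 libraries with 2 a time and moderated across genes. They do not measure the spread at each time separately.

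Among the members the median of the mean levels was 8.14 CPM at 0 minutes (range 0.503 to 92.4), 316 CPM at 30 minutes (85.5 to 2174) and 629.5 CPM at 60 minutes (304 to 6907). In single libraries the median member stood at 7.59 and 8.87 CPM at 0 minutes, at 312.6 CPM in each 30 minute library, and at 558 and 696 CPM in the 60 minute libraries. Both 30 minute libraries thus lay far above both 0 minute libraries and below both 60 minute libraries. The ratio of the 60 to the 0 minute mean, which the choice set to at least 8, had a median of 96.3 and reached 1225. Of all tested genes, 28.4% were called higher at 60 than at 0 minutes, and the 193 members were so by their choice. At 60 minutes 712 genes had a mean of at least 300 CPM, and 35 of the 100 most heavily read genes were members. Of the 100 most heavily read genes at 30 minutes 17 were members, and at 0 minutes 0, where the choice itself kept members below 100 CPM.

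**Figure D1:**
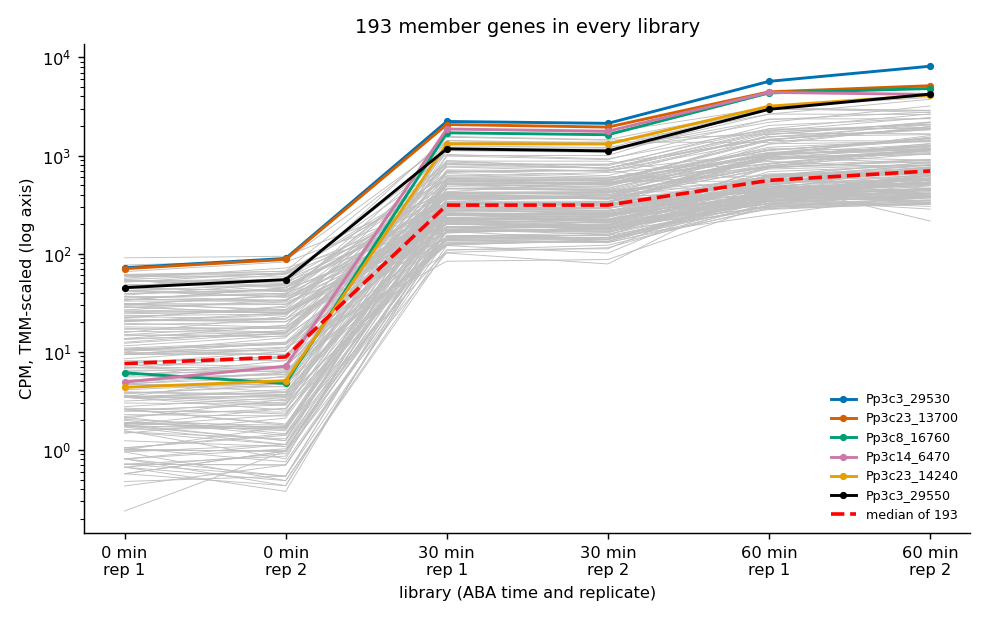
CPM (log axis) of the 193 members in each of the 6 libraries; each grey line is 1 gene, the 6 members highest at 60 minutes are coloured, and the dashed red line is the median of all 193. Lines join the libraries of a gene only to make it easy to follow. The median climbs from 7.59 and 8.87 CPM at 0 minutes to 558 and 696 CPM at 60 minutes.

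The 6 members with the highest level at 60 minutes began at very different levels. Pp3c3_29530, the third most heavily read gene at 60 minutes, had 71.9 and 89.4 CPM at 0 minutes, 2222 and 2126 CPM at 30 minutes and 5696 and 8119 CPM at 60 minutes. Pp3c23_13700 had a like course, with 70.3 and 87.4 CPM, then 2068 and 1948 CPM, then 4451 and 5137 CPM. The libraries of the 3 times did not overlap for either gene, and their log2 changes from 0 to 30 minutes were 4.75 (SE 0.22) and 4.67 (SE 0.19). Pp3c8_16760 went from 6.11 and 4.76 CPM to 1703 and 1628 CPM and then to 4339 and 4811 CPM. Pp3c14_6470 went from 4.92 and 7.14 CPM to 1862 and 1768 CPM and then to 4397 and 4189 CPM. These genes began far below the first pair and came close to the level of Pp3c23_13700. Their log2 changes from 0 to 30 minutes were 8.25 (SE 0.22) and 8.24 (SE 0.23), and their 60 minute means were 841 and 712 times those of 0 minutes. Pp3c23_14240 had 4.35 and 5.09 CPM at 0 minutes, 1317 and 1309 CPM at 30 minutes and 3182 and 4134 CPM at 60 minutes, and Pp3c3_29550 had 45.0 and 54.4 CPM, 1171 and 1113 CPM, and 2956 and 4218 CPM. All 6 rose again between 30 and 60 minutes, by log2 changes from 1.24 (SE 0.16, Pp3c14_6470, adjusted p = 0.000187) to 1.67 (SE 0.20, Pp3c3_29530, adjusted p = 8.78e-05) by the quasi-likelihood test of edgeR, with p-values adjusted by Benjamini and Hochberg's method.

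At 30 minutes every member was already higher than at 0 minutes. edgeR's quasi-likelihood test called 193 of 193 members higher at 30 than at 0 minutes at an adjusted p below 0.05 (adjusted p from 1.23e-10 to 1.62e-05), where it called 19.6% of all tested genes higher and 16.8% lower. No member was called lower. In all 193 both 30 minute libraries lay above both 0 minute libraries, which held for 36.4% of tested genes. The log2 change had a median of 5.32 among the members (range 1.79 to 8.91) and of -0.02 over all tested genes, and the fold of the means had a median of 40.1 (3.45 to 488). This comparison shares its 0 minute libraries with the choice of members.

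The largest change by 30 minutes was that of Pp3c26_470, with 1.72 and 1.14 CPM at 0 minutes, 684 and 709 CPM at 30 minutes and 1064 and 1449 CPM at 60 minutes (log2 change from 0 to 30 minutes 8.91, SE 0.25, adjusted p = 2.11e-10). Its libraries of the 3 times did not overlap. The smallest was that of Pp3c9_24080, with 56.3 and 71.4 CPM, then 224 and 216 CPM, then 507 and 726 CPM (log2 change from 0 to 30 minutes 1.79, SE 0.18, adjusted p = 1e-05). Its libraries did not overlap between times either. Both were singled out as the ends of the range after their values were seen.

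Most members went on rising between 30 and 60 minutes, by far smaller folds than before. The same test called 179 of 193 members (92.7%) higher at 60 than at 30 minutes and 3 (1.55%) lower, against 17.4% and 18.5% of all tested genes. Both 60 minute libraries lay above both 30 minute libraries in 184 members (95.3%) and in 33.7% of tested genes. The log2 change had a median of 1.17 among the members (range -0.61 to 2.33) and of 0.01 over all tested genes, and the median ratio of the 60 to the 30 minute mean was 2.25. The comparison shares its 60 minute libraries with the choice, whose floor at 60 minutes favours genes still high then. A further 321 genes were within the same limits on start and ratio but had a 60 minute mean below 300 CPM. Their ratios of 60 to 0 minutes were smaller than those of the members, with a median of 16.8 (quartiles 10.9 and 38.4) against 96.3 (25.1 and 472). For these genes the medians were a log2 change of 3.31 from 0 to 30 minutes and of 0.85 from 30 to 60 minutes. The difference between these genes and the members was not tested, since the 60 minute level separates them.

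On the log2 scale the first change was the larger for nearly all members. The choice favours this order. From a low start with a ratio of at least 8, equal gains in CPM give a larger log2 change in the first 30 minutes. The log2 change of the first 30 minutes minus that of the second 30 minutes was tested in one contrast. With equal spread, which few reads at 0 minutes do not assure, this contrast is orthogonal to the change from 0 to 60 minutes. It is not so to the 0 and 60 minute levels, which the choice also limits, and it shares those libraries with the choice. Its median was 4.22 among the members (range 0.30 to 8.64) and 0.05 over all tested genes. edgeR's quasi-likelihood test called it above 0 in 190 members (98.4%) and below 0 in none, against 14.3% and 4.94% of tested genes. The 3 members with no call were Pp3c2_19280 (0.40, SE 0.22, adjusted p = 0.236), Pp3c9_24080 (0.30, SE 0.30, adjusted p = 0.526) and Pp3c22_21110 (1.38, SE 0.55, adjusted p = 0.105). Pp3c2_19280 had 47.4 and 51.7 CPM at 0 minutes, 217 and 208 CPM at 30 minutes and 635 and 754 CPM at 60 minutes, given after its values were seen, a 4.29-fold and then a 3.26-fold rise.

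In reads added, the order of the intervals depended on the scaling. With TMM the median gain was 293 CPM from 0 to 30 minutes and 349 CPM from 30 to 60 minutes. In 138 members the second gain was the larger, and in 107 of these it was so for every choice of 1 library a time. In 55 members the first gain was the larger, 36 of them for every choice. With total reads in place of TMM the order turned: the second gain was the larger in 77 members and the first in 116. With upper-quartile scaling the second was the larger in 121 members and with DESeq2 size factors in 143. These gains in CPM are a description and were not tested.

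**Figure D2:**
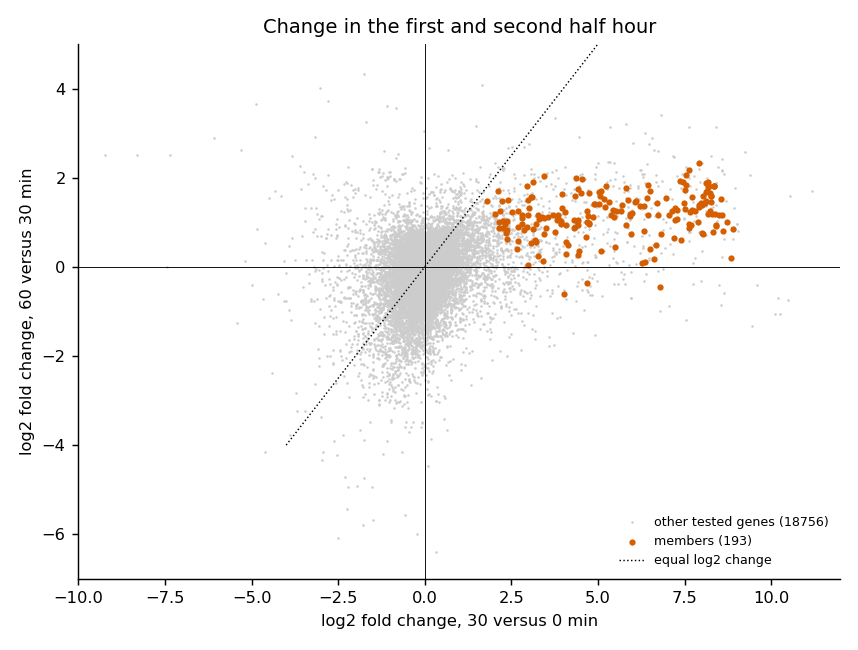
Log2 change from 0 to 30 minutes (horizontal) against log2 change from 30 to 60 minutes (vertical) for the 193 members (orange) and all other tested genes (grey), with a dotted line where both are equal. All 193 members lie to the right of the line, with a median of 5.32 across and 1.17 up, and 3 of them lie below 0 on the vertical axis.

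The level at 30 minutes as a percent of the level at 60 minutes gives how far each gene had come. Its median over the 193 members was 44.4% (quartiles 35.6% and 53.8%, range 19.8% to 152.8%). Less than 25% had been reached in 4 members, 25% to 50% in 124, 50% to 75% in 49, 75% to 100% in 13, and 3 stood higher at 30 than at 60 minutes. The 321 genes below the 60 minute floor, whose ratios were smaller, had a median of 55.4% (15.4% to 227.6%), a difference that was not tested.

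The 3 members that came down after 30 minutes still ended many times above their start. Pp3c5_14790 had 44.1 and 41.7 CPM at 0 minutes, 673 and 709.5 CPM at 30 minutes and 393 and 512 CPM at 60 minutes. It fell by 0.61 on the log2 scale (SE 0.14, adjusted p = 0.00615, edgeR's quasi-likelihood test) after 30 minutes, and the libraries of 30 and 60 minutes did not overlap. Pp3c8_7340 had 7.11 and 8.66 CPM, then 877 and 876 CPM, then 540.0 and 742 CPM, and fell by 0.45 (SE 0.16, adjusted p = 0.0445). Its 60 minute libraries both lay below both 30 minute libraries but differed from each other by more than the nearer of them did from 30 minutes. Pp3c19_13160 had 14.6 and 15.9 CPM, then 413 and 368 CPM, then 289 and 319 CPM, and fell by 0.36 (SE 0.12, adjusted p = 0.0348), also without overlap. The calls of Pp3c8_7340 and Pp3c19_13160 were each kept in 8 of 15 other settings of the analysis. Both were lost on leaving out either 0 minute library, either 30 minute library or the first 60 minute library, with adjusted p up to 0.184 and 0.307. Both were also lost with DESeq2 size factors (adjusted p = 0.0661 and 0.0567), under which 1 member was called lower in place of 3. The call of Pp3c5_14790 was kept in 14 of 15, and without the second 30 minute replicate its adjusted p was 0.0598.

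A further 11 members had no call between 30 and 60 minutes, with 78.2% to 96.9% of the later level reached at 30 minutes and log2 changes of 0.04 to 0.35 (adjusted p from 0.060 to 0.787). Their 60 minute means ran from 397 to 1899 CPM, with a median of 511 CPM against 629.5 CPM for all members. Pp3c18_7460 is an example with a very low start, at 1.58 and 0.812 CPM at 0 minutes, 563 and 549 CPM at 30 minutes and 546 and 720.1 CPM at 60 minutes. Its 60 minute libraries lay on either side of the 30 minute libraries, and its log2 change after 30 minutes was 0.19 (SE 0.16, adjusted p = 0.403). Pp3c16_13150 and Pp3c16_13170, separated by 1 ID in the sorted list, are both in this group, with 94.1% and 92.1% reached at 30 minutes. These examples were picked after their values were seen.

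At the other end stood members with most of their reads still to come at 30 minutes. Pp3c19_2760 had 0.668 and 0.920 CPM at 0 minutes (14 and 17 reads), 189 and 197 CPM at 30 minutes and 786 and 1159.8 CPM at 60 minutes. It had reached 19.8% of its 60 minute level at 30 minutes, rose by a log2 change of 2.33 after that (SE 0.18, adjusted p = 6.98e-06), and had the highest 60 to 0 minute ratio of the set, 1225. Pp3c20_8210 had 2.15 and 1.46 CPM, then 339 and 391 CPM, then 1303 and 1978 CPM, with 22.3% reached at 30 minutes and a log2 change of 2.17 after it (SE 0.20, adjusted p = 1.81e-05). Pp3c16_15490 had 0.668 and 0.487 CPM, then 109 and 112 CPM, then 541 and 380.0 CPM, with 24.1% reached and a log2 change of 2.05 (SE 0.16, adjusted p = 7.65e-06). None of these 3 had overlapping libraries between times, though their 60 minute replicates stood well apart. Pp3c3_5150, second by ratio at 1150.1 and with counts nearly the same as those of other members, went from 1.0 and 0.974 CPM through 313 and 338 CPM to 1007 and 1266 CPM.

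**Figure D3:**
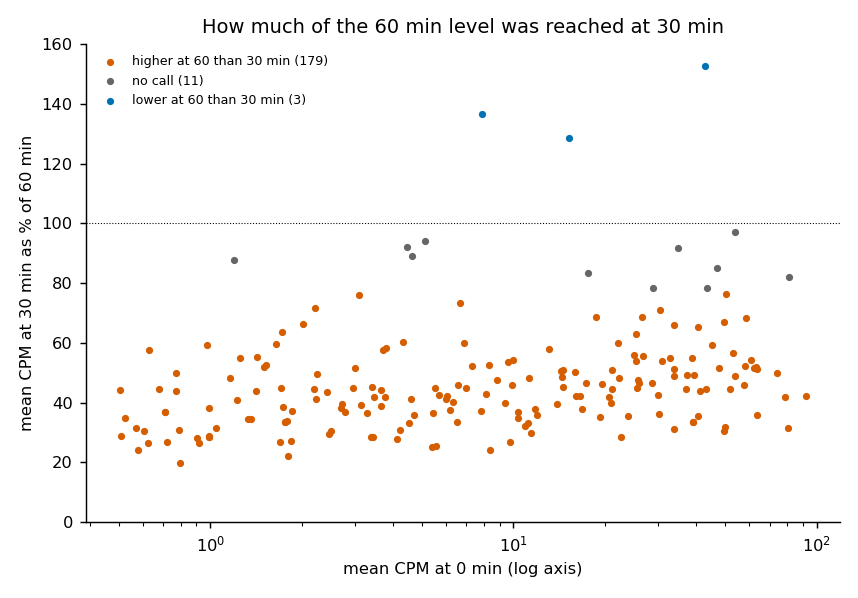
Mean CPM at 0 minutes (log axis) against the 30 minute mean as a percent of the 60 minute mean, 1 point a member; orange points were called higher at 60 than at 30 minutes (179), grey had no call (11) and blue were called lower (3). The dotted line marks equal levels at 30 and 60 minutes; most points lie between 25% and 75%.

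Within the set, where a member began said little of where it ended. Across the 193 genes Spearman's rho between the 0 and 60 minute means was 0.03, and between the 30 and 60 minute means 0.82. The choice bounds the levels at 0 and 60 minutes, so the value of 0.03 does not tell how start and end relate in other genes. The 23 members that began from 0.5 to below 1 CPM had a median of 562 CPM at 60 minutes, the 82 that began from 1 to below 10 CPM a median of 651 CPM, and the 88 that began from 10 to below 100 CPM a median of 629 CPM. Their median ratios of 60 to 0 minutes were accordingly 797, 289 and 23.0. Genes with lower starts stood at a lower percent at 30 minutes, with medians of 30.7%, 42.1% and 48.6% of the 60 minute level (rho of start and percent reached 0.36). Genes higher at 60 minutes also stood at a lower percent, with a median of 51.0% for the 70 members at 300 to 500 CPM and of 38.6% for the 20 at 2000 CPM or more (rho -0.27). The percent reached has the 60 minute level as its divisor and counts the starting level as reached. The genes share the same libraries and are not independent replicates, and these relations are descriptions.

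Together the members took a large part of the sequenced message. They held 0.385% and 0.396% of gene reads in the 0 minute libraries, then 9.08% and 8.89%, then 15.6% and 17.0%, or 0.391% ± 0.008, 8.99% ± 0.13 and 16.3% ± 0.97 (SD, n = 2). The times did not overlap; the shares at 0 and 60 minutes follow from the choice, and that at 30 minutes was not part of it. The 6 highest members alone held 0.0259%, 1.06% and 2.31% on average. At 60 minutes the 20 members at 2000 CPM or more held 34.3% of the members' CPM, and the 70 members below 500 CPM held 14.3%. The 321 genes below the 60 minute floor held 0.206%, 2.38% and 2.93% of gene reads, a lower share at 60 minutes that the floor itself sets.

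**Figure D4:**
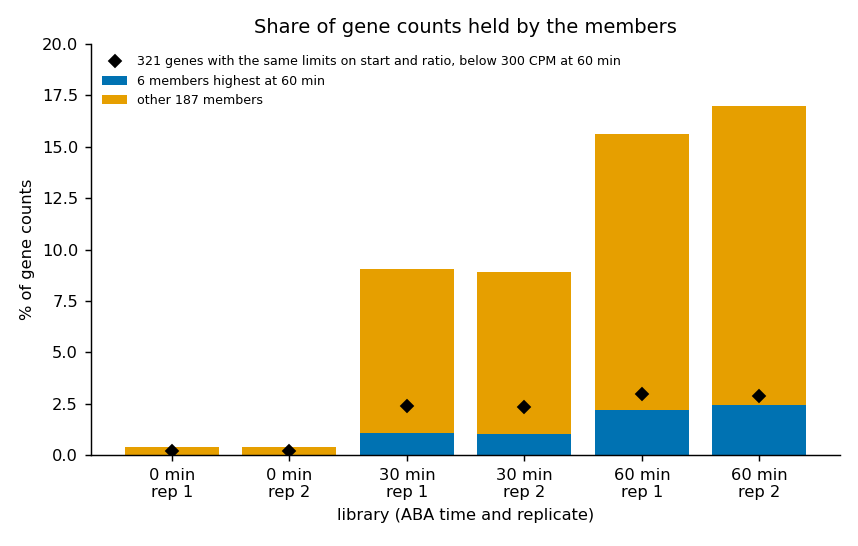
Percent of all gene reads held by the 6 highest members (blue) and the other 187 members (orange) in each library, as stacked bars; diamonds mark the 321 genes with the same limits on start and ratio that stayed below 300 CPM at 60 minutes. The bars reach 9.08% and 8.89% in the 30 minute libraries, and 15.6% and 17.0% in those of 60 minutes.

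The scaling moves with this share. The TMM factors fell from 1.18 and 1.13 in the 0 minute libraries through 1.04 and 1.05 to 0.875 and 0.793 in the 60 minute libraries, so scaling by total reads alone gives smaller changes; the part of the members in this was not tested. With total reads the median log2 change over all tested genes was -0.16 from 0 to 30 minutes and -0.31 from 30 to 60 minutes. The members' medians were then 5.17 and 0.84, and their median percent reached at 30 minutes was 55.8% in place of 44.4%. With upper-quartile scaling the median log2 change from 0 to 30 minutes was -0.26 over all tested genes and 5.07 among the members.

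The 60 minute replicates differed for the members in one direction. In 160 of 193 members (82.9%) the level was higher in replicate 2, where 50.9% of tested genes were. The ratio of replicate 2 to replicate 1 had a median of 1.2 among the members (range 0.407 to 1.66) and of 1.01 over all tested genes. Its quartiles were 1.06 and 1.33 among the members and 0.834 and 1.17 over all tested genes with reads in both libraries. Of the members, 91 were over 1.2-fold higher in replicate 2 against 7 in replicate 1, a count not made for other genes. At 30 minutes the members' ratio had a median of 0.989 and at 0 minutes of 1.04. With total reads in place of TMM the 60 minute median was 1.08. What set the replicates apart was not tested. Without replicate 1 of 60 minutes the median percent reached at 30 minutes was 41.0%, and without replicate 2 it was 48.8%.

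The widest gaps between the 60 minute replicates went both ways. Pp3c22_21110 had 7.78 and 8.98 CPM at 0 minutes, 101 and 78.5 CPM at 30 minutes and 529 and 215 CPM at 60 minutes, 2.46-fold higher in replicate 1. Pp3c13_11160 had 20.4 and 24.7 CPM, then 166 and 180.1 CPM, then 457 and 760.4 CPM, 1.66-fold higher in replicate 2. Pp3c9_9380 had 20.5 and 21.6 CPM, then 146 and 146 CPM, then 248 and 411 CPM, 1.65-fold higher in replicate 2. All 3 kept their times apart and were called higher at 60 than at 30 minutes, with log2 changes of 2.04 (SE 0.32, adjusted p = 0.000547), 1.82 (SE 0.20, adjusted p = 6.7e-05) and 1.17 (SE 0.19, adjusted p = 0.000723) in edgeR's quasi-likelihood test.

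**Figure D5:**
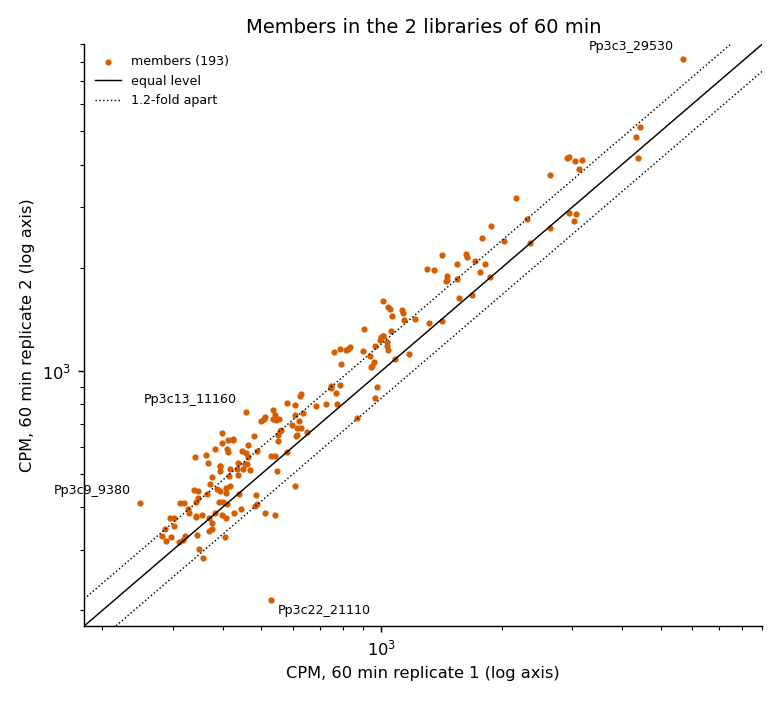
CPM of the 193 members in the 60 minute replicates (both axes log), with a solid line at equal level and dotted lines at 1.2-fold. Most points (160 of 193) lie above the solid line, and Pp3c22_21110 lies farthest below it.

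Choosing the genes in one replicate and reading them in the other gave nearly the same set. With replicate 1 of 0 and 60 minutes alone the rule chose 184 genes, of which 182 had a ratio of at least 8 and 174 met the whole rule in replicate 2; their median ratio was 92.4 in replicate 1 and 103 in replicate 2, and the lowest in replicate 2 was 7.04. With replicate 2 alone it chose 192 genes, of which 190 had a ratio of at least 8 and 174 met the whole rule in replicate 1. Their median ratio was 101 where chosen and 87.7 where read, with a lowest of 7.86. With 1 library a time there is no test.

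The genes nearest each limit of the choice were close to it on either side. Pp3c12_26160 was inside the floor at 0 minutes with 0.503 CPM and Pp3c14_21890 outside it with 0.49 CPM, 1 of 3 genes kept out by that floor alone although its 60 to 0 minute ratio was 1167. Pp3c1_3610 was inside the ceiling at 0 minutes with 92.4 CPM and Pp3c6_2530 outside it with 112 CPM, 1 of 5 such genes. Pp3c19_13160 was inside the 60 minute floor with 304 CPM and Pp3c7_22590 outside it with 296 CPM, 1 of 321. Pp3c15_10670 was inside the ratio with 8.02 and Pp3c25_2760 outside it with 7.48, 1 of 23.

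Members were spread over all 27 numbered groups of IDs beginning with Pp3c. Group 3 had the highest number, 18 (1.68% of its tested genes), 7 of them in sets of members with nearly the same counts. Groups 1, 13, 16 and 19 held 12 each, which in groups 13 and 19 was 1.93% and 2.08% of tested genes. Over all IDs, 193 of 18949 tested genes were members. None had an ID beginning with Pp3s. In the sorted list of IDs, 7 pairs of members stood next to each other, 2 of them with nearly the same counts, and 38 members belonged to a pair within 10 places. No such count was made for other genes, so these numbers do not tell whether members lie together more often. The run of Pp3c3_29530, Pp3c3_29550 and Pp3c3_29560 was the one with the highest levels, with means at 60 minutes of 6907 ± 1714, 3587 ± 892 and 3541 ± 889 CPM (SD, n = 2). These neighbours had reached 31.5%, 31.8% and 31.0% of those levels at 30 minutes, and each was 1.43-fold higher in replicate 2 than in replicate 1 of 60 minutes. Whether neighbours are more alike than other members was not tested.

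For 11 members in 5 sets the counts were nearly the same as those of another member in every library, within a log2 difference of 0.05 and at most 2.67% apart. The largest set had 3 genes. Pp3c3_5150 had 21 and 18 reads at 0 minutes, 5730 and 4408 reads at 30 minutes and 14193 and 17625 reads at 60 minutes. Pp3c3_5210 had 21 and 18, then 5717 and 4410, then 14200 and 17617 reads. Pp3c3_5260 had 21 and 18, then 5701 and 4398, then 14187 and 17604 reads. The other sets were Pp3c3_5200 with Pp3c3_5270, Pp3c13_20480 with Pp3c13_20590, Pp3c3_22440 with Pp3c3_22450, and Pp3c19_5460 with Pp3c19_5500. Counts so alike can arise where near-identical copies share reads, which was not tested, and the levels of these 11 genes are uncertain. The members held such genes at 5.70%, and 5.29% of 11672 tested genes with at least 100 reads in every treated library had such a neighbour within 20 places. With each set counted once there were 187 genes, holding 15.8% of gene reads at 60 minutes, of which 173 were called higher and 3 lower at 60 than at 30 minutes.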

How the data were processed

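The authors deposited whole-number read counts per gene, 1 table a library, with 32926 gene IDs and 5 summary rows. Per the submitters' processing notes the tools were cutadapt, TopHat, HTSeq and DESeq2; per the labels' protocols the kit was stranded. Genome build, annotation and counting strand were not given in the sources used here. Reads in no gene (1.66% to 2.14%) and the other summary rows, all at 0, were left out. Genes were kept by filterByExpr (minimum count 10, total 15), and all 6 libraries were fitted by time with edgeR 4.0.16 in R 4.3.3 (TMM, glmQLFit, glmQLFTest). Calls needed a Benjamini-Hochberg adjusted p below 0.05 over all 18949 tested genes. A standard error is the log2 change divided by the square root of F. limma 3.58.1 (voom) and DESeq2 1.42.0 were alternatives.

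The members, lists and tests were chosen with earlier results of these data known, and the near-identical sets after seeing the counts. Named with every library's value are the 6 members highest at 60 minutes, the 3 with the highest and the 3 with the lowest percent reached at 30 minutes, the 3 with the widest gap between 60 minute replicates, and the 2 with the highest 60 to 0 minute ratio. The genes nearest each limit are given with the mean or ratio that the limit concerns. Any other gene was picked after seeing values, as is said beside it or follows from its place in a count of 5 or fewer. Lists by gene description and a promoter search were not run, since no ID matched among the 27567 RefSeq genes used here.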

Additional observations from a re-analysis of the deposited data

Results flagged for a closer look

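The members chosen on their rise over 60 minutes were not all called the same way after 30 minutes. In edgeR's quasi-likelihood test 179 of 193 (92.7%) were called higher at 60 than at 30 minutes and 3 (1.55%) lower. Of all tested genes 17.4% were called higher and 18.5% lower. The 3 were Pp3c5_14790 (log2 change -0.61, adjusted p = 0.00615), Pp3c8_7340 (-0.45, adjusted p = 0.0445) and Pp3c19_13160 (-0.36, adjusted p = 0.0348). The calls of Pp3c8_7340 and Pp3c19_13160 were each kept in only 8 of 15 other settings, and that of Pp3c5_14790 in 14 of 15. All 3 genes were picked out because the change of the second 30 minutes had the opposite sign to that of the first. The first change minus the second was also above 0 in each (log2 4.62, 7.25 and 5.04), which that choice sets. No group had the 4 libraries needed to look for a library far from the others.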

How the results depend on the processing

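With total reads in place of TMM, the members with the larger CPM gain in the second 30 minutes were 77 in place of 138, so the order turned, and the median percent reached at 30 minutes was 55.8%. This count was added after seeing the data; no other direction reversed. Total reads gave 163 members by the rule and upper-quartile factors 170. Of the 193, total reads called 167 higher and 4 lower at 60 than at 30 minutes. Under that scaling the median log2 change from 30 to 60 minutes over all tested genes was -0.31. The share of all tested genes called was not counted there. A 60 minute floor of 500 CPM left 123 members, of which 123 were called higher at 30 than at 0 minutes, 116 higher at 60 than at 30 and 121 with the larger first log2 change, holding 14.0% of gene reads at 60 minutes; with a floor of 200 CPM the share was 17.4% (249 genes) and with a ratio of at least 16 it was 15% (160 genes). Leaving out 1 library at a time gave 183 to 204 members, 193 to 193 called higher at 30 minutes, 168 to 184 called higher at 60 than at 30, 181 to 193 with the larger first change, 118 to 146 with the larger second CPM gain, a share of 15.6% to 17.0% and 41.0% to 48.8% reached; the library left alone at its time is then assumed to vary like the other groups. With the replicate number as a block the counts were 193, 180 and 191. Deviations of same-numbered libraries correlated at -0.06 (0 and 30 minutes), 0.02 (0 and 60) and 0.30 (30 and 60), so the numbers were not taken to pair the libraries. Of single genes, the first log2 change of Pp3c13_11160 minus the second was called above 0 in 8 of 14 settings. The call was lost without any 1 of the 0 and 30 minute libraries. It was also lost in edgeR's test with upper-quartile factors (adjusted p = 0.062) and with DESeq2 size factors (adjusted p = 0.051). For Pp3c22_21110, with no call in the main analysis, this difference was called in 4 of 14 settings. The 0 minute levels near 0.5 CPM rest on few reads.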
